A study of Mus musculus with 18 samples.

Results

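Alternative activation markers are genes that macrophages switch on under IL-4, and 9 of them were followed here in mouse eosinophils: *Chil3*, *Chil4*, *Retnla*, *Mrc1*, *Tgm2*, *Pparg*, *Ppargc1b*, *Fn1* and *Pdcd4*. The genes were picked by symbol through the Ensembl identifiers of the count tables. They are 9 of the 55029 genes listed for the libraries with *E. coli* or IFN-γ and 9 of the 54232 genes listed for the IL-4 libraries. Of these 9 genes, 5 passed the filter on low counts in the former libraries and 8 in the latter.

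In macrophages, IL-4 binds a receptor that contains IL-4Rα and activates the transcription factor STAT6, and the cells then make chitinase-like and resistin-like secreted proteins, lectin receptors and matrix proteins. PPARγ, a nuclear receptor for fatty acid ligands that binds DNA together with RXR, belongs to the same programme and drives genes of lipid uptake and oxidation. IFN-γ and bacterial products drive the opposite, classical state, and eosinophils carry receptors for both cytokines.

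The study asked how eosinophils respond to type 1 and type 2 stimuli, and the comparisons below ask which of the macrophage IL-4 markers respond in these cells. Peritoneal eosinophils of C57BL/6 mice with an *Il5* transgene (line NJ.1638), which gives the animals very high eosinophil numbers, were enriched by depletion with beads against Thy1.2 and B220. Purity was checked by flow cytometry in the study, which describes the few contaminating cells as mostly lymphocytes. RNA was sequenced from 18 libraries in 6 groups of 3. All groups share the strain and the transgene, and the age and number of the mice are not given in the sources used here.

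In the *E. coli*/IFN-γ set, 3 libraries came from unstimulated cells (called a, b and c), 3 from cells kept for 18 h with heat-inactivated *E. coli*, 3 from cells with IFN-γ at 50 ng/ml and 3 from cells with both. In the IL-4 set, 3 libraries came from other unstimulated cells (called d, e and f) and 3 from cells kept for 18 h with IL-4 at 100 ng/ml. The time that unstimulated cells spent in culture is not given in the sources used here, and its part in the comparisons was not tested. The libraries of a group are called biological replicates in the study, but whether they are separate animals or cultures is not given in the sources used here, and p-values measure the spread between these libraries. Levels are in CPM, counts scaled to TMM-normalized library totals. The ± after a CPM is the SD over 3 libraries, and the ± after a log2 fold change is its approximate standard error. A gene is said to have risen or fallen where its adjusted p in edgeR's quasi-likelihood test was under 0.05.

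Totals on genes ranged from 1523808 to 2734041 counts in the *E. coli*/IFN-γ set and from 3625036 to 6482289 in the IL-4 set. A floor of 3 counts in a library, taken as the lowest level distinct from 0, equals 1.00 to 2.19 CPM in the former and 0.497 to 0.833 CPM in the latter, and it covers counting error only. The labels name a CEL-Seq run and an RNA-seq run on different sequencers without saying which libraries belong to which. The sets are therefore never compared by level, and each stimulus was set against the unstimulated cells of its own set. Among replicates, unstimulated library e stood furthest from the others: chi-square per gene was 23.7 against d and 22.0 against f, where it was 7.86 between d and f and 3.72 to 5.25 between IL-4 libraries.

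IL-4 raised 4 of the 8 genes tested, *Chil3*, *Chil4*, *Tgm2* and *Pparg*, where 5.97% of all tested genes rose, and lowered 2, *Retnla* and *Fn1*, where 4.35% of all tested genes fell. *E. coli* raised 0 of the 5 genes tested, against 13.5% of all tested genes, and lowered 2, *Fn1* and *Pdcd4*, against 16.7%. IFN-γ raised 2, *Chil3* and *Tgm2*, against 15.6%, and lowered 1, *Pdcd4*, against 16.0%. IFN-γ with *E. coli* raised 2, *Chil3* and *Tgm2*, against 23.9%, and lowered 1, *Pdcd4*, against 25.2%. The last 3 comparisons share unstimulated libraries a to c. *Pparg*, with at most 1 count in any of unstimulated libraries d to f, passed the filter only through the IL-4 libraries. It could have been called only as a rise, so its place among the 4 does not bear on the share of genes that rose. *Mrc1* did not pass the test with IL-4, and *Ppargc1b* was removed by the filter on low counts in both sets. For *E. coli*, DESeq2 also raised 0 of the 5 genes, and none of them had an unadjusted p under 0.05 in the upward direction in edgeR.

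The count with IL-4 rests on few libraries. In place of 6, the number of genes called was 3 without IL-4 replicate 1, 3 without replicate 2, 2 without replicate 3 and 4 without unstimulated library f. Without library d the number was 6, and without library e it was 7, as *Mrc1* then passed. With no filter on low counts, *Chil4*, *Mrc1*, *Pparg* and *Ppargc1b* passed with no stimulus of the *E. coli*/IFN-γ set (lowest adjusted p = 0.115, *Pparg* with IFN-γ). A gene said below not to be tested is one that the filter removed.

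**Figure D1:**
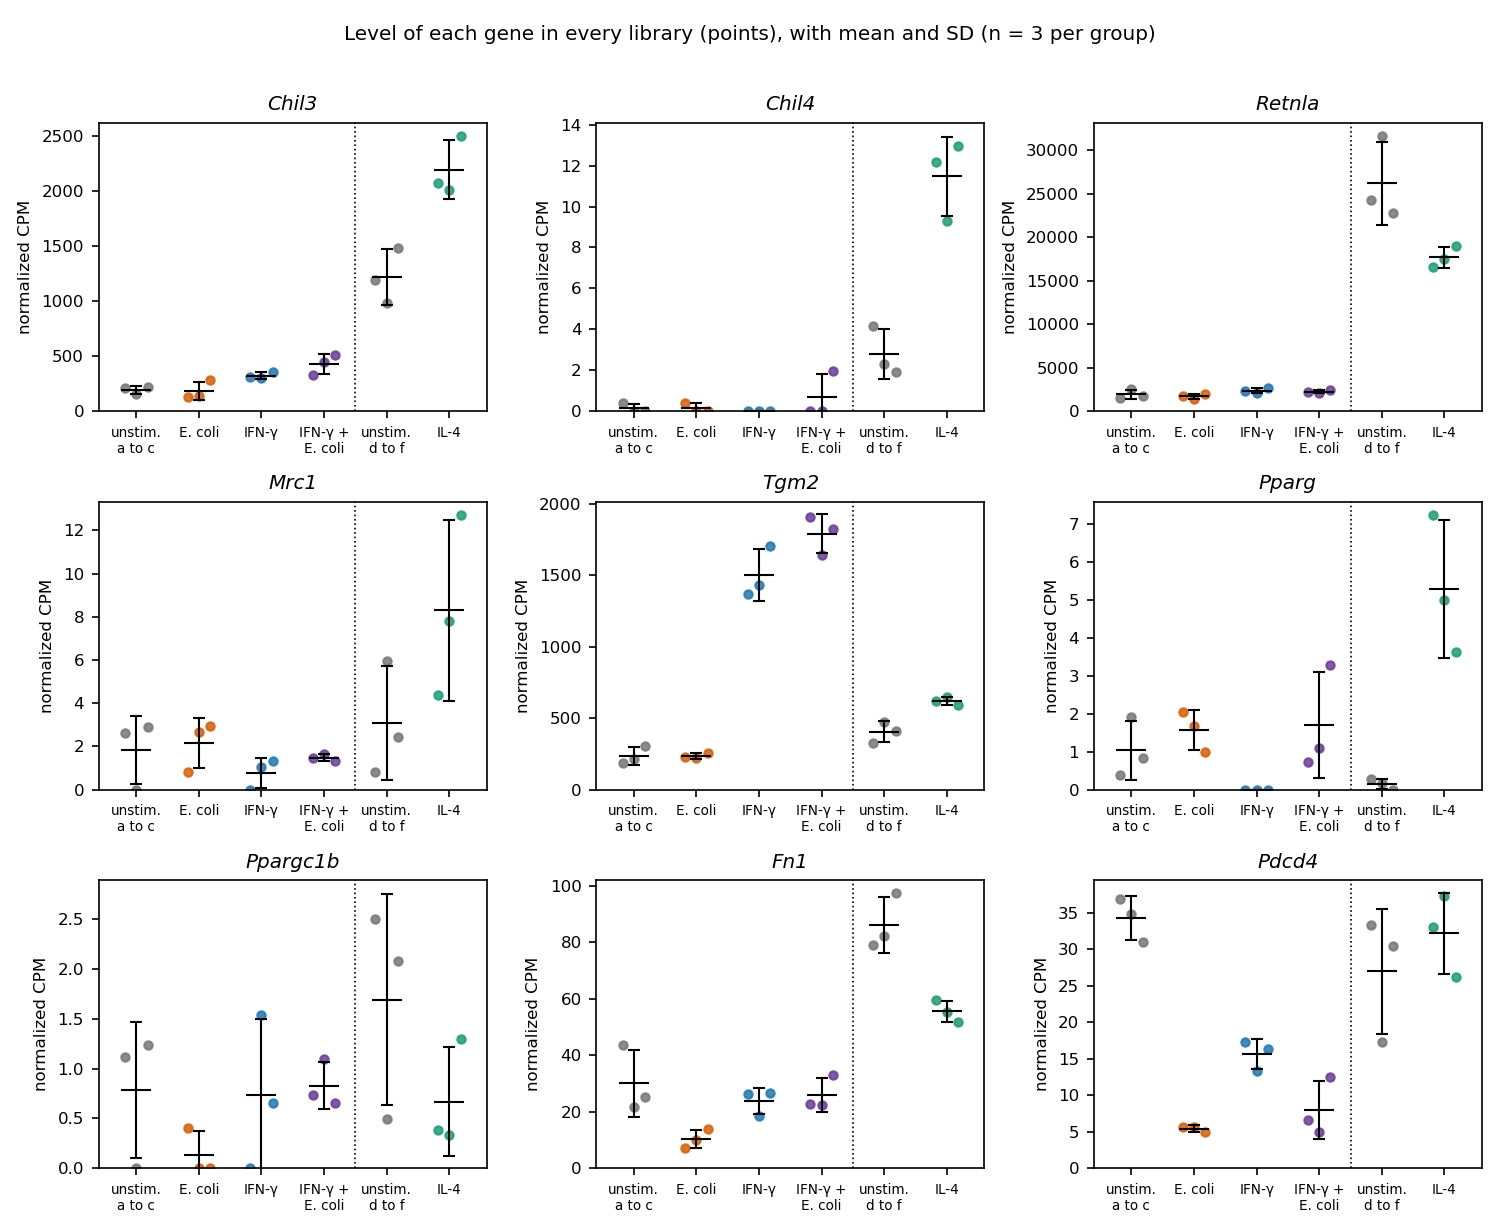
Level of each of the 9 genes in normalized CPM (vertical axis, from 0) in the 18 libraries, by group, with points for libraries and bars for the mean and SD of 3. A dotted line parts the *E. coli*/IFN-γ set from the IL-4 set, whose levels are not comparable. With IL-4, the 3 libraries lie above unstimulated d to f for *Chil3*, *Chil4*, *Tgm2* and *Pparg*, and below them for *Retnla* and *Fn1*.

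*Chil3* (ENSMUSG00000040809; GRCm38 chromosome 3, 106147554 to 106167564, minus strand) encodes Ym1, a secreted chitinase-like lectin that has no chitinase activity. It stood at 1194, 982 and 1485 CPM in unstimulated libraries d, e and f and at 2075, 2011 and 2502 CPM in IL-4 replicates 1, 2 and 3. Every IL-4 library lay above every unstimulated one. The mean went from 1220.2 ± 252 to 2196 ± 267 CPM, a 1.80-fold rise (log2 fold change 0.85 ± 0.16, adjusted p = 0.00714). The rise missed the threshold without IL-4 replicate 3 (adjusted p = 0.0526). In bulk libraries such as these, fewer cells of a type and less RNA per cell cannot be told apart, which holds for every gene below.

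In the other set *Chil3* stood at 209, 153 and 215 CPM in unstimulated libraries a, b and c, and at 131, 134 and 280.0 CPM in *E. coli* replicates 1, 2 and 3. With IFN-γ it reached 308, 296 and 358 CPM, and with both stimuli 331, 449 and 510.4 CPM. The 6 libraries with IFN-γ all lay above the 6 libraries without it. *E. coli* overlapped the unstimulated libraries on both sides, and IFN-γ overlapped both stimuli.

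By mean *Chil3* was ordered as *E. coli* (182 ± 85.1 CPM), unstimulated (192 ± 34.4), IFN-γ (321 ± 32.5) and both stimuli (430.2 ± 91.3). IFN-γ raised it 1.66-fold (log2 fold change 0.73 ± 0.23, adjusted p = 0.0201), and both stimuli 2.23-fold (adjusted p = 3.49e-04). The IFN-γ call was lost with DESeq2 (adjusted p = 0.0614), without unstimulated library b (0.0720) and without IFN-γ replicate 3 (0.0668). With *E. coli* alone the log2 fold change of *Chil3* was -0.10 ± 0.23 (adjusted p = 0.784). *E. coli* replicate 3, the highest *Chil3* library of its group, also had the highest summed level of 15 macrophage markers, 1423 CPM against 1094 and 972 in replicates 1 and 2. The same library was highest for 6 mast cell markers (34.6 CPM against 10.2 and 6.69) and 6 B cell markers (76.5 against 40.8 and 44.5). Without that replicate *Chil3* fell by 0.54 on the log2 scale (adjusted p = 0.0258), and the part of RNA of these cells in this was not tested.

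*Chil4* (ENSMUSG00000063779; chromosome 3, 106201490 to 106219507, minus strand) encodes Ym2, a close relative of Ym1 and its neighbour in the genome. It held 15, 14 and 10 counts in unstimulated libraries d, e and f (4.17, 2.32 and 1.89 CPM) and 64, 56 and 50 counts with IL-4 (12.2, 9.30 and 12.96 CPM). The lowest IL-4 library lay above the highest unstimulated library. Its mean went from 2.79 ± 1.21 to 11.5 ± 1.92 CPM, a 4.22-fold rise (log2 fold change 2.08 ± 0.35, adjusted p = 0.00408). In all 12 libraries of the *E. coli*/IFN-γ set *Chil4* was at or under the floor, and a response to those stimuli was not detectable at this depth.

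*Chil3* and *Chil4* are near-copies, so a share of their reads could come from either gene. Of the 1629 distinct words of 50 bases in *Chil3* transcripts, 438 (26.9%) also occurred in *Chil4* or *Gm6522*. Of 2763 such words in *Chil4*, 304 (11.0%) were shared, and over the last 400 bases of its transcripts 0 were shared. For *Chil3* the share over the last 400 bases was 13.8%. By the study's methods, CEL-Seq reads entered the counts only when their place in the genome was unique, so that a read fitting both genes equally would be left out. Which libraries these were is not given in the sources used here.

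*Retnla* (ENSMUSG00000061100; chromosome 16, 48842551 to 48844461, plus strand) encodes the secreted protein RELMα, a resistin-like marker of IL-4 stimulated macrophages. It stood at 24267, 31662 and 22761 CPM in unstimulated libraries d, e and f and at 16566, 17509 and 18977 CPM with IL-4. All IL-4 libraries lay below all unstimulated ones. In place of a rise, *Retnla* fell from 26230.0 ± 4764 to 17684 ± 1215 CPM, 1.48-fold lower (log2 fold change -0.57 ± 0.13, adjusted p = 0.0213). The call was lost without IL-4 replicate 1 (adjusted p = 0.121), replicate 2 (0.0950) or replicate 3 (0.0582). In deposited counts it held 1.70% to 2.95% of each library of that set, and it was the highest gene of all in unstimulated libraries d, e and f.

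The summed level of 15 macrophage markers was also lower with IL-4, at 2071, 1978 and 2281 CPM against 2443, 2841 and 3061 CPM in unstimulated libraries d, e and f. Of 13 of these markers tested with IL-4, 0 rose and 5 fell, where 5.97% of all tested genes rose and 4.35% fell. *Marco* fell most (log2 fold change -2.77 ± 0.14), and *C1qc* or *C1qb* was the most abundant in each library. The markers did not all go the same way. *Timd4* (53.2 to 75.7 CPM unstimulated, 80.1 to 103 CPM with IL-4) and *Gata6* (10.4 to 11.3 and 13.998 to 20.4 CPM) were higher without overlap but missed the threshold (adjusted p = 0.0856 and 0.106). The part of macrophage RNA in the fall of *Retnla* was not tested.

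In the *E. coli*/IFN-γ set the *Retnla* counts were close to a ceiling. The highest count of any gene was 4089 to 4095 in each of the 12 libraries, none exceeded 4096, the number of distinct identifiers of 6 bases, and 29 to 78 genes per library held over 3000 counts. *Retnla* had 4072, 3966 and 4062 counts in unstimulated libraries a, b and c, 4079, 4084 and 3999 with *E. coli*, and 4037, 3994 and 4057 with IFN-γ. Over these 9 libraries its counts differed by no more than 1.03-fold while the totals differed 1.75-fold. With both stimuli its counts were lower, at 3058, 3676 and 3703. In the IL-4 set 103 to 229 genes per library were above 4096 counts.

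**Figure D2:**
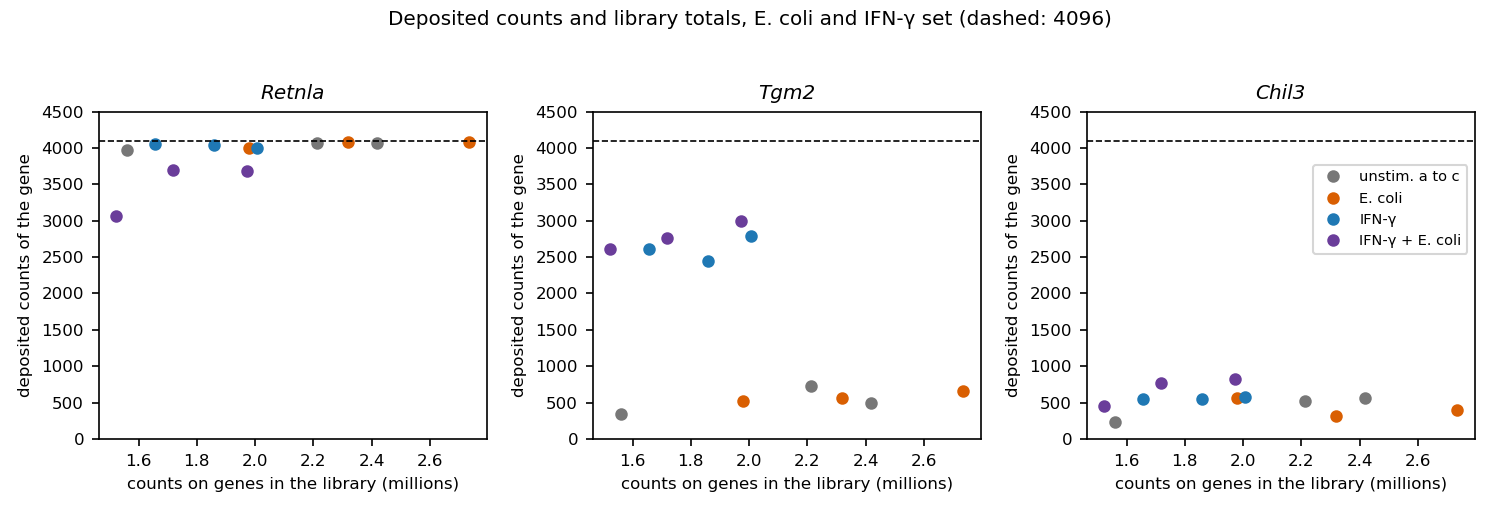
Deposited counts of *Retnla*, *Tgm2* and *Chil3* (vertical axis) against the total on genes (horizontal axis) in the 12 libraries of the *E. coli*/IFN-γ set, 1 point for each library, coloured by group. *Retnla* lies just under the dashed line at 4096 whatever the total, except with both stimuli (3058 to 3703 counts), whereas *Tgm2* and *Chil3* lie further below it.

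Normalized to the totals, *Retnla* stood at 1517, 2514 and 1678 CPM in unstimulated libraries a, b and c and at 1664, 1366 and 1974 CPM with *E. coli*. With IFN-γ it stood at 2259.7, 2047 and 2653 CPM and with both stimuli at 2233, 2014 and 2442 CPM. The 4 groups overlapped, apart from *E. coli*, which lay below the other stimulated groups in every library. No stimulus of this set moved it past the threshold, with log2 fold changes of -0.19 ± 0.17 for *E. coli*, 0.29 ± 0.17 for IFN-γ and 0.23 ± 0.17 for both (adjusted p = 0.448, 0.223 and 0.287). Without unstimulated library b, which had the smallest total of its group, the log2 fold changes were 0.56 for IFN-γ (adjusted p = 0.00931) and 0.50 for both stimuli (0.0115), past the threshold. The counts behind them were 4072 and 4062 in libraries a and c, 3994 to 4057 with IFN-γ and 3058 to 3703 with both stimuli. With counts this near the ceiling, the changes follow the library totals and cannot be read as a rise of *Retnla*.

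An alternative chosen after seeing the data read each count as distinct identifiers out of 4096 and converted it to molecules. *Retnla* then stood at 21052, 14132 and 19626 in unstimulated libraries a, b and c and at 5623, 9329 and 9601 with both stimuli. Its change with both stimuli turned to -0.66 on the log2 scale (adjusted p = 0.00263), a fall in place of 0.23. Whether the deposited counts are distinct identifiers is not given in the sources used here, and the direction of *Retnla* with both stimuli thus depends on the reading of its counts.

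*Mrc1* (ENSMUSG00000026712; chromosome 2, 14229392 to 14332057, plus strand) encodes the mannose receptor CD206, a lectin on the surface of alternatively activated macrophages. It held 3, 36 and 13 counts in unstimulated libraries d, e and f (0.833, 5.96 and 2.45 CPM) and 23, 47 and 49 counts with IL-4 (4.38, 7.81 and 12.7 CPM). Unstimulated library e lay within the range of the IL-4 libraries. The log2 fold change of 1.31 ± 0.57 did not pass the test (adjusted p = 0.179). It passed without library e (2.19, adjusted p = 0.0153) and with no filter on low counts (1.29, adjusted p = 0.0165). In the *E. coli*/IFN-γ set *Mrc1* had 7, 0 and 7 counts in unstimulated libraries a, b and c, at most 8 in any library with a stimulus, and was not tested.

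*Tgm2* (ENSMUSG00000037820; chromosome 2, 158116402 to 158146436, minus strand) encodes transglutaminase 2, an enzyme that crosslinks proteins and a marker shared by human and mouse macrophages under IL-4. Unstimulated libraries d, e and f held 329, 476 and 411 CPM and IL-4 replicates 620.0, 647 and 591 CPM. The groups did not overlap. The mean went from 405 ± 73.6 to 619 ± 28.3 CPM, a 1.53-fold rise (log2 fold change 0.61 ± 0.14, adjusted p = 0.0213). The call was lost without unstimulated library f (adjusted p = 0.0623) and without IL-4 replicate 1 (0.0817), 2 (0.102) or 3 (0.0676).

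With IFN-γ *Tgm2* moved much further. It stood at 183, 216 and 304 CPM in unstimulated libraries a, b and c, 229, 219 and 259.7 CPM with *E. coli*, 1371, 1429.6 and 1707 CPM with IFN-γ, and 1911, 1644 and 1823 CPM with both stimuli. The 6 libraries with IFN-γ were all at or above 1371 CPM and the 6 without it at or below 304 CPM. IFN-γ raised *Tgm2* 6.41-fold (log2 fold change 2.68 ± 0.16, adjusted p = 4.09e-10) and both stimuli raised it 7.64-fold (2.93 ± 0.16, adjusted p = 4.93e-11). In order of the means, unstimulated (234 ± 62.5 CPM) and *E. coli* (236 ± 21.1) did not differ beyond their spread, and IFN-γ (1503 ± 179.6) and both stimuli (1793 ± 136) overlapped. With *E. coli* its log2 fold change was 0.01 ± 0.16 (adjusted p = 0.983). Its counts with IFN-γ or both stimuli, 2450 to 3001, were high enough to be touched by the ceiling, and the converted counts gave larger rises, 3.27 and 3.60 on the log2 scale. Exons of *Tgm2* overlap *Gm20412* and *Rprd1b* on the opposite strand, and whether the counting used strand is not given in the sources used here.

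*Pparg* (ENSMUSG00000000440; chromosome 6, 115360951 to 115490399, plus strand) encodes the nuclear receptor PPARγ. It was close to absent from unstimulated libraries d, e and f, with 1, 1 and 0 counts, and held 38, 30 and 14 counts in IL-4 replicates 1, 2 and 3 (7.23, 4.98 and 3.63 CPM). All IL-4 libraries lay above the floor and all unstimulated ones below it. Against the floor the rise was at least 8.35-fold, a bound that was not itself tested. The edgeR test on the counts gave an adjusted p of 0.00158, and the call held without any 1 of the 6 libraries (highest adjusted p = 0.0160). In the other set *Pparg* had 1, 3 and 2 counts unstimulated, 5, 5 and 2 with *E. coli*, 0, 0 and 0 with IFN-γ, and 1, 2 and 5 with both stimuli, and was not tested. A count of 0 in an IFN-γ library allows at most 3 counts, so a fall was not detectable at this depth.

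*Ppargc1b* (ENSMUSG00000033871; chromosome 18, 61298136 to 61400431, minus strand) encodes a coactivator that works with PPARγ and other nuclear receptors on oxidative metabolism. It held 9, 3 and 11 counts in unstimulated libraries d, e and f and 2, 2 and 5 counts with IL-4. Unstimulated library e lay within the IL-4 range. The filter on low counts removed it, and with no filter it did not pass with IL-4 (adjusted p = 0.530). In the *E. coli*/IFN-γ set it was at or under the floor in all 12 libraries.

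*Fn1* (ENSMUSG00000026193; chromosome 1, 71585520 to 71653200, minus strand) encodes the matrix protein fibronectin, which macrophages secrete. It stood at 78.9, 82.3 and 97.4 CPM in unstimulated libraries d, e and f and at 59.5, 55.2 and 51.8 CPM with IL-4. All IL-4 libraries were below all unstimulated ones. *Fn1* fell from 86.2 ± 9.85 to 55.5 ± 3.86 CPM, 1.55-fold lower (log2 fold change -0.63 ± 0.14, adjusted p = 0.0175). The call was lost without unstimulated library f (adjusted p = 0.0621) and without IL-4 replicate 1 (0.0648), 2 (0.0837) or 3 (0.0772). The macrophage marker sum was lower in the same libraries, as given with *Retnla*, and its part in the fall of *Fn1* was not tested.

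In unstimulated libraries a, b and c *Fn1* stood at 43.6, 21.5 and 25.2 CPM, and with *E. coli* at 7.34, 10.03 and 13.8 CPM. With IFN-γ it stood at 26.3, 18.5 and 26.8 CPM and with both stimuli at 22.6, 22.5 and 33.0 CPM. The *E. coli* libraries were the lowest of the 12, and the other groups overlapped one another. *E. coli* lowered *Fn1* 3.01-fold (log2 fold change -1.59 ± 0.28, adjusted p = 2.88e-04), from 30.1 ± 11.8 to 10.4 ± 3.26 CPM. IFN-γ (23.9 ± 4.69 CPM) and both stimuli (26.0 ± 6.02 CPM) lay between these means, with log2 fold changes of -0.38 ± 0.26 and -0.25 ± 0.26 (adjusted p = 0.290 and 0.454). Unstimulated library a held the highest value, and without it these changed sign to 0.01 and 0.14. Exons of *Fn1* overlap *Apol7d* on the opposite strand.

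Macrophage markers were followed beside *Fn1*. Their sum was 1528, 1418 and 1527 CPM in unstimulated libraries a, b and c and 1094, 972 and 1423 CPM with *E. coli*, with *Csf1r* the most abundant gene in each. The groups overlapped, as *E. coli* replicate 3 lay above unstimulated library b. Of 14 of these markers tested, 0 rose, 11 were not called and 3 fell with *E. coli*, where 16.7% of all tested genes fell: *Marco* (log2 fold change -1.72 ± 0.17), *Timd4* (-1.62 ± 0.25) and *Vsig4* (-1.44 ± 0.43). With IFN-γ the sum was 2041, 1894 and 2037 CPM (5 markers rose and 1 fell), and with both stimuli 1695, 1805 and 2122 CPM (6 rose and 1 fell). Of all tested genes, 13.5% rose with *E. coli*, 15.6% rose and 16.0% fell with IFN-γ, and 23.9% rose and 25.2% fell with both. The part of macrophage RNA in the levels of *Fn1*, *Chil3* and *Tgm2* was not tested.

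*Pdcd4* (ENSMUSG00000024975; chromosome 19, 53892231 to 53929860, plus strand) encodes an inhibitor of translation that binds an initiation helicase. It stood at 33.3, 17.2 and 30.4 CPM in unstimulated libraries d, e and f and at 33.1, 37.2 and 26.2 CPM with IL-4. The groups overlapped, and the log2 fold change of 0.27 ± 0.25 did not pass the test (adjusted p = 0.531).

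The other stimuli lowered *Pdcd4*. It stood at 36.9, 34.9 and 31.0 CPM in unstimulated libraries a, b and c, at 5.71, 5.68 and 4.94 CPM with *E. coli*, at 17.4, 13.3 and 16.3 CPM with IFN-γ, and at 6.57, 4.93 and 12.5 CPM with both stimuli. No stimulated library reached the lowest unstimulated one. *E. coli* lowered it 6.19-fold (log2 fold change -2.63 ± 0.25, adjusted p = 2.55e-07), both stimuli 4.31-fold (-2.11 ± 0.26, adjusted p = 2.07e-06) and IFN-γ 2.19-fold (-1.13 ± 0.22, adjusted p = 7.71e-04). By mean the order was *E. coli* (5.44 ± 0.439 CPM), both stimuli (8.01 ± 3.998), IFN-γ (15.7 ± 2.09) and unstimulated (34.2 ± 3.01), and *E. coli* and both stimuli did not differ beyond their spread.

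Markers of B cells were lower with *E. coli* and with IFN-γ too. Their summed level over 6 genes was 217, 196 and 117 CPM in unstimulated libraries a, b and c, 40.8, 44.5 and 76.5 CPM with *E. coli*, 100.2, 61.5 and 58.2 CPM with IFN-γ, and 121, 134 and 128 CPM with both stimuli. *Ighm* was the most abundant in each library. Of 5 tested, 5 fell with *E. coli* and 4 with IFN-γ, where 16.7% and 16.0% of all tested genes fell. With both stimuli 0 were called (median log2 fold change -0.43), where 23.9% of all tested genes rose and 25.2% fell. The part of B cell RNA in the fall of *Pdcd4* was not tested.

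**Figure D3:**
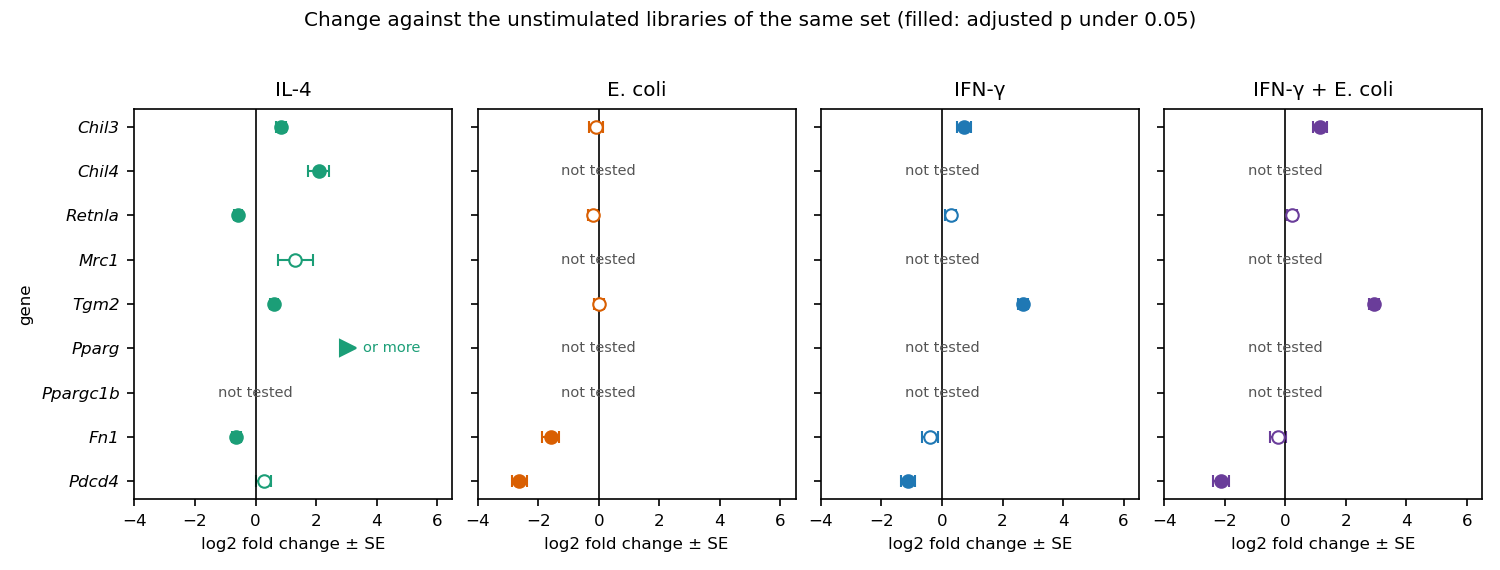
Log2 fold change (horizontal axis) of each gene (vertical axis) with each stimulus against the unstimulated libraries of the same set, 3 against 3, with bars for the standard error and filled points for an adjusted p under 0.05. The triangle for *Pparg* marks the lower bound of its rise (at least 8.35-fold). *Tgm2* lies furthest right with IFN-γ (2.68) and both stimuli (2.93), and *Pdcd4* furthest left with *E. coli* (-2.63).

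Adding *E. coli* to IFN-γ changed 1 of the 5 genes tested, where 12.2% of all tested genes changed. *Pdcd4* was 1.97-fold lower with both stimuli than with IFN-γ alone (log2 fold change -0.98 ± 0.30, adjusted p = 0.0362), and DESeq2 did not call it (adjusted p = 0.0684). *Chil3* (0.43 ± 0.22, adjusted p = 0.248) and *Tgm2* (0.25 ± 0.15, adjusted p = 0.311) did not pass the test. *Retnla* gave -0.06 ± 0.17 (adjusted p = 0.882), and -0.94 (adjusted p = 8.16e-04) with the converted counts.

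Adding IFN-γ to *E. coli* changed 3 of 5, where 32.8% of all tested genes changed. *Tgm2* rose 7.60-fold (log2 fold change 2.93 ± 0.16, adjusted p = 1.27e-10), *Fn1* 2.53-fold (1.34 ± 0.30, adjusted p = 0.00222) and *Chil3* 2.39-fold (1.26 ± 0.23, adjusted p = 2.88e-04). *Pdcd4* gave 0.52 ± 0.33 (adjusted p = 0.253). *Retnla* gave 0.42 ± 0.17 (adjusted p = 0.0712), which turned to -0.64 (adjusted p = 0.00556) with the converted counts.

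The interaction asks whether the joint log2 effect departs from the sum of the single effects. It was called for 2 of the 5 genes, *Fn1* and *Pdcd4*, where 4.62% of all tested genes were called. For *Fn1* it was 1.72 ± 0.40 (adjusted p = 0.0173), with log2 fold changes on adding *E. coli* of -1.59 without IFN-γ and 0.13 with it. For *Pdcd4* it was 1.65 ± 0.41 (adjusted p = 0.0234), with log2 fold changes on adding *E. coli* of -2.63 without IFN-γ and -0.98 with it. *Chil3* (0.53 ± 0.32), *Tgm2* (0.25 ± 0.22) and *Retnla* (0.13 ± 0.24) did not pass, and *Retnla* gave -0.92 (adjusted p = 0.0248) with the converted counts.

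Some markers of other cells gave an interaction in the same direction. It was called upward for 5 of 5 B cell markers tested (median 2.68), where 4.62% of all tested genes were called in either direction. The mean B cell sum went from 177 to 53.9 CPM on adding *E. coli* without IFN-γ and from 73.3 to 128 CPM with it. Of 14 macrophage markers tested the interaction was called for *Marco* (2.01 ± 0.23) and *Timd4* (1.62 ± 0.34), both upward. *Timd4* went from 28.1 to 9.43 CPM without IFN-γ and from 27.9 to 27.6 CPM with it. The part of these cells in the interactions of *Fn1* and *Pdcd4* was not tested.

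Whether a gene responded differently to IL-4 than to another stimulus was tested as the difference of the log2 fold changes, each against its own unstimulated cells, over all 18 libraries. Against the *E. coli* response, 3 of 7 genes tested differed, where 28.1% of all tested genes did. The response to IL-4 was higher for *Pdcd4* (difference 2.89 ± 0.37, adjusted p = 4.06e-06), *Fn1* (0.93 ± 0.32, adjusted p = 0.0339) and *Chil3* (0.93 ± 0.32, adjusted p = 0.0344).

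Against the IFN-γ response, 3 of 7 differed, where 27.8% of all tested genes did. By the deposited counts the response to IL-4 was lower for *Tgm2* (difference -2.10 ± 0.23, adjusted p = 4.34e-07) and *Retnla* (-0.89 ± 0.25, adjusted p = 0.0103) and higher for *Pdcd4* (1.37 ± 0.34, adjusted p = 0.00439). For *Chil3* the difference was 0.08 ± 0.32 (adjusted p = 0.885), which does not show that the responses were alike. The converted counts gave -0.86 for *Retnla* (adjusted p = 0.00780) and -2.67 for *Tgm2* (adjusted p = 1.80e-08). *Retnla* held 3966 to 4072 counts in unstimulated libraries a to c and 3994 to 4057 with IFN-γ, just under the ceiling. Neither reading measures its response to IFN-γ well, so its difference cannot be taken as a lower response to IL-4.

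Against the response to both stimuli, 3 of 7 differed, where 39.2% of all tested genes did. The differences were -2.38 ± 0.23 for *Tgm2* (adjusted p = 3.31e-08), 2.33 ± 0.37 for *Pdcd4* (adjusted p = 3.92e-05) and -0.86 ± 0.25 for *Retnla* (adjusted p = 0.00896). Those of *Retnla* and *Tgm2* rest on counts near the ceiling in the *E. coli*/IFN-γ set. With the converted counts the difference for *Retnla* was 0.10 (adjusted p = 0.767) in place of -0.86, and it thus depends on how its counts are read, while that for *Tgm2* was -2.98 (adjusted p = 1.52e-09).

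Other genes that IL-4 induces in macrophages were followed as a list of 28, of which 23 were tested in the IL-4 set and 19 in the other. With IL-4, 11 rose and 1 fell, where 5.97% of all tested genes rose and 4.35% fell, and the median log2 fold change was 1.06, where that of all tested genes was 5.74e-04. *Ccl17*, a chemokine for type 2 helper T cells, was at least 9.81-fold higher. *Pdcd1lg2*, the checkpoint ligand PD-L2, rose (log2 fold change 3.11 ± 0.25), as did *Flt1*, a VEGF receptor (2.83 ± 0.55), and *Irf4*, a transcription factor (2.71 ± 0.46). In unstimulated libraries d to f *Ccl17* held at most 3 counts and *Irf4* 2 to 8, so both passed the filter through the IL-4 libraries. The list was chosen with earlier results of these data known, so its share of rises is not an independent comparison.

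With *E. coli*, 6 of the 19 rose and 2 fell (median 0.04, all genes -0.02), where 13.5% of all tested genes rose and 16.7% fell. With IFN-γ 10 rose and 0 fell (median 0.49, all genes -0.03), against 15.6% and 16.0% of all tested genes. With both stimuli 13 rose and 3 fell (median 1.12, all genes -0.04), against 23.9% and 25.2%. *Pdcd1lg2* was at least 7.84-fold higher with *E. coli*, at least 4.13-fold higher with IFN-γ and at least 17.4-fold higher with both. *Egr2*, a transcription factor, rose by 2.46 ± 0.18, 2.19 ± 0.19 and 3.22 ± 0.18 on the log2 scale. *Klf4*, a transcription factor downstream of STAT6 in macrophages, rose with IFN-γ (2.94 ± 0.30) and both stimuli (3.20 ± 0.30). *Slc7a2*, a transporter of cationic amino acids, rose with *E. coli* (1.10 ± 0.22) and both stimuli (2.18 ± 0.22). With IFN-γ alone *Slc7a2* stood higher too, at 359 ± 8.46 CPM against 134 ± 33.2 CPM unstimulated. *Il4ra*, which encodes IL-4Rα, rose with *E. coli* (1.10 ± 0.11).

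Partners and targets of PPARγ formed a list of 30, with 24 tested in each set. With IL-4, under which *Pparg* itself rose, 2 rose and 5 fell (median -0.02), against 5.97% and 4.35% of all tested genes. Those that fell past 2-fold were *Pprc1*, a coactivator related to *Ppargc1b* (log2 fold change -2.17 ± 0.34), *Cd36*, a fatty acid transporter (-1.77 ± 0.18), and *Cebpa*, a transcription factor of fat and myeloid cells (-1.43 ± 0.29). *Rxra*, the partner of PPARγ, gave 0.00 ± 0.14 (adjusted p = 0.994). *Ppara* and *Ppargc1a* were at or under the floor in every library of both sets.

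With *E. coli*, 6 of these 24 rose and 8 fell (median -0.16), against 13.5% and 16.7% of all tested genes. Among those that fell were the lipid carrier *Fabp5* (-1.75 ± 0.22), the sterol receptor *Nr1h3* (-1.72 ± 0.37), *Cd36* (-1.43 ± 0.22) and *Cpt1a* of fatty acid oxidation (-1.37 ± 0.20). *Cd36* stood higher with IFN-γ, at 151 ± 20.4 CPM against 71.5 ± 16.3 CPM unstimulated. With IFN-γ, 10 rose and 2 fell (median 0.35), against 15.6% and 16.0%, with the lipid droplet genes *Hilpda* (2.56 ± 0.21) and *Plin2* (1.11 ± 0.13) and the nuclear receptor *Ppard* (1.26 ± 0.17) among the former and *Cebpa* (-1.74 ± 0.47) among the latter. With both stimuli, 10 rose and 6 fell (median 0.39), against 23.9% and 25.2%, including *Hilpda* (3.76 ± 0.21), the cholesterol exporter *Abca1* (2.55 ± 0.20), *Ppard* (1.81 ± 0.17) and *Plin2* (1.53 ± 0.13).

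Of 9 relatives of the chitinase-like and resistin-like genes, 2 were tested in each set, and of these 0 rose, and 1 fell with *E. coli*, 1 with both stimuli and 1 with IL-4, where 16.7%, 25.2% and 4.35% of all tested genes fell. *Retnlg*, which encodes RELMγ, fell with *E. coli* (log2 fold change -1.02 ± 0.12), and with IL-4 (-1.30 ± 0.11), the direction of *Retnla* with IL-4. Of 9 transglutaminase genes, *Tgm2* included, 3 were tested. *Tgm1* fell with IFN-γ (at least 3.25-fold lower) and with both stimuli (-1.48 ± 0.56), where *Tgm2* rose, and *F13a1*, a subunit of coagulation factor XIII, fell with IL-4 (-0.998 ± 0.27). *Tgm3*, *Tgm4*, *Tgm5*, *Tgm6* and *Tgm7* were at or under the floor in all 18 libraries.

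Fibronectin receptors and other matrix genes formed a list of 11. With *E. coli*, 1 of 9 tested rose and 4 fell (median -1.12), against 13.5% and 16.7% of all tested genes, with the integrin subunits *Itgb3* (-2.04 ± 0.16) and *Itga4* (-1.78 ± 0.13) and the matrix gene *Tgfbi* (-1.54 ± 0.15) falling and the matrix gene *Thbs1* rising (1.84 ± 0.16). With IFN-γ 2 rose and 3 fell (median -0.14), against 15.6% and 16.0%, and with both stimuli 2 rose and 5 fell (median -0.43), against 23.9% and 25.2%. The log2 fold changes of *Tgfbi* in these were -2.66 and -3.97, those of *Itgb3* -1.52 and -3.16, those of *Thbs1* 2.17 and 3.09 and those of *Vcan* -1.74 and -1.73. The counts of *Thbs1* with both stimuli, 2977 to 3583, were high enough to be touched by the ceiling. With IL-4, 0 of 10 rose and 3 fell (median -0.27), against 5.97% and 4.35%.

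Partners of *Pdcd4* in translation and its degradation, 11 genes with *Pdcd4*, were all tested. With *E. coli* 2 rose and 1 fell, against 13.5% and 16.7% of all tested genes. With IFN-γ 2 rose and 1 fell, against 15.6% and 16.0%, with both stimuli 3 rose and 2 fell, against 23.9% and 25.2%, and with IL-4 0 were called. No gene of this list but *Pdcd4* was called with a change past 2-fold.

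Markers fixed for eosinophils and other cell types were summed as well. The 10 eosinophil markers summed to 3842, 5139 and 3990 CPM in unstimulated libraries a, b and c, 3519, 3117 and 3533 CPM with *E. coli*, 4071, 3605 and 4446 CPM with IFN-γ, and 3275, 2893 and 3125 CPM with both stimuli. The libraries with *E. coli* or both stimuli all lay below the unstimulated ones, and those with IFN-γ overlapped them. *Ccr3* or *Alox15* was the most abundant, and *Prg3* was at or under the floor in all 12 libraries. In unstimulated libraries a to c *Alox15* held 3197 to 3732 counts and *Ccr3* 2690 to 3295, high enough to be touched by the ceiling. The part of the ceiling in these marker sums was not tested. Of 6 tested, 1 rose and 2 fell with *E. coli*, against 13.5% and 16.7% of all tested genes, 0 rose and 4 fell with IFN-γ, against 15.6% and 16.0%, and 1 rose and 4 fell with both, against 23.9% and 25.2%. Unstimulated libraries d, e and f summed to 5173, 6002 and 5293 CPM and those with IL-4 to 5031, 5234.5 and 5104 CPM, where 4 of 10 rose and 1 fell, against 5.97% and 4.35%. The part of these shifts in the levels of the 9 genes was not tested.

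Neutrophil markers were dominated by *Retnlg*, which fell with IL-4, and their sum went from 1999, 1948 and 1682 CPM in unstimulated libraries d, e and f to 808, 835 and 775 CPM. The sum of the other 9 went from 21.1, 21.4 and 24.0 CPM to 42.6, 42.5 and 67.7 CPM with IL-4. Most of this was *Cxcr2*, a chemokine receptor, which went from a mean of 3.76 to 32.1 CPM (log2 fold change 3.09 ± 0.30), while *S100a8* stood at a mean of 7.74 CPM unstimulated and 4.77 CPM with IL-4 and was not called. The list thus did not move in one direction. Of 5 tested 1 rose and 1 fell (median 0.38), where 5.97% of all tested genes rose and 4.35% fell. In the other set these 9 summed to 35.5 to 45.4 CPM unstimulated, 130 to 213 CPM with *E. coli*, 67.7 to 79.8 CPM with IFN-γ and 71.6 to 111 CPM with both stimuli, with *Elane*, *Ltf*, *Mpo* and *Ngp* at or under the floor throughout. All stimulated libraries lay above the unstimulated ones in this sum, in which *S100a8* went from a mean of 8.58 CPM to 72.1, 39.2 and 55.1 CPM and *Cxcr2* from 26.2 to 88.5, 7.78 and 16.1 CPM. Of 4 tested, *Retnlg* included, 2 rose and 1 fell with *E. coli*, against 13.5% and 16.7% of all tested genes. With IFN-γ 2 rose and 1 fell, against 15.6% and 16.0%, and with both 2 rose and 2 fell, against 23.9% and 25.2%.

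Dendritic cell markers summed to 6.11, 4.64 and 8.31 CPM in unstimulated libraries d, e and f and to 8.56, 14.1 and 18.4 CPM with IL-4. The IL-4 libraries were the higher ones, and of 2 tested *Xcr1* rose (log2 fold change 1.34 ± 0.36), where 5.97% of all tested genes rose. Dendritic cell markers reached at most 9.31 CPM in the other set, and mesothelial and stromal markers at most 6.42 CPM there and 53.7 CPM in the IL-4 set. T cell markers stayed between 1.30 and 8.94 CPM in all 18 libraries, with *Cd3e*, *Cd3g*, *Cd4* and *Cd8a* at or under the floor in each.

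Mast cell markers summed to 9.69, 8.24 and 7.43 CPM in unstimulated libraries a, b and c, 30.2, 14.4 and 13.1 CPM with IFN-γ and 36.5, 72.3 and 66.6 CPM with both stimuli. The 6 libraries with IFN-γ all lay above the unstimulated ones. Of 2 markers tested 1 rose with IFN-γ and 2 with both, where 15.6% and 23.9% of all tested genes rose. With IL-4 mast cell markers summed to 17.3, 7.98 and 20.7 CPM against 8.61, 6.63 and 7.36 CPM in unstimulated libraries d, e and f. Of these 0 were called, where 5.97% of all tested genes rose and 4.35% fell. B cell markers were higher with IL-4, at 64.3, 58.7 and 71.8 CPM against 25.0, 23.7 and 43.4 CPM. Of 4 tested 3 rose, where 5.97% of all tested genes rose. The part of all these cells in the changes of the 9 genes was not tested.

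The promoters were searched for the letters of the STAT6 motif, TTC and GAA with 4 free bases between them. RefSeq start sites on GRCm38.p6 were given for 6 of the 9 genes, and the 250 bases before each start were searched on both strands. No entry was used for *Tgm2*, *Fn1* and *Ppargc1b*. The STAT6 letters were in 1 of the 6 genes, *Retnla*, and in 6.76% of 27025 genes. The PPARγ and RXR repeat, AGGTCA repeated after 1 free base, was in 0 of the 6 genes and in 0.0407% of all genes. Over single promoters, of which a gene may have several, the shares were 5.85% and 0.0335% of 32851. The stretch of the *Retnla* promoter around this match is shown (chr16:48842424-48842513, plus strand), with the match in capitals, at positions -145 to -136 from the RefSeq start at 48842609, which lies downstream of the first base of the gene given above.
Retnla: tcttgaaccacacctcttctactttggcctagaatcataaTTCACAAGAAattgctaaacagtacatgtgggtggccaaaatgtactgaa

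A match is a run of letters and not a measured binding site, and *Retnla*, which carries the STAT6 letters, was lower with IL-4.

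Genes with the most similar levels were named by Pearson's r of log2 CPM, over 12 libraries of the *E. coli*/IFN-γ set that share normalization and, in part, depth. They were *Lyz1* (r = 0.982), *App* (0.977) and *Apoe* (0.974) for *Chil3*. For *Tgm2* they were *Nampt* (0.996), *Tlr6* (0.992) and *Mxi1* (0.991). For *Fn1* they were *Itpkb* (0.951), the macrophage marker *Timd4* (0.916) and *Fanca* (0.905). For *Pdcd4* they were *Ogfrl1* (0.961), *Cyfip2* (0.955) and *Smpdl3a* (0.954). None are named for *Retnla*, whose counts near the ceiling changed little with the library total. Over the 6 libraries of the IL-4 set, *Chil4* was most like *E130102H24Rik* (0.996), *Scai* (0.995) and *Prepl* (0.994), and *Mrc1* most like *Ndufv3* (0.998), *Wdtc1* (0.992) and *Tspo* (0.991).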

How the data were processed

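The authors deposited unnormalized counts per Ensembl gene and library. The submitters' processing notes name fastp 0.20.1, STAR 2.7.2a, TopHat2 2.1.0, HTSeq 0.6.1 and GRCm38, without saying which was used for which libraries. Summary entries that name no gene held 21.1% to 39.4% of the counts in the *E. coli*/IFN-γ set, where alone they are listed, and were left out. Symbols and positions came from GENCODE M21, which named 98.3% and 99.7% of the genes listed.

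Analysis used R 4.3.3 with edgeR 4.0.16. After filterByExpr and TMM normalization, groups were tested by edgeR (quasi-likelihood test, Benjamini-Hochberg adjustment over all genes tested): 9883 in the 12 libraries of the *E. coli*/IFN-γ set, 10556 in the 6 of the IL-4 set, and 10671 in a model of all 18 libraries that compared responses. Standard errors came from the log2 fold change and the F statistic. The fits were tested on simulated data, with no outcome reported here. Replicates of every group differed by more than counting error (chi-square per gene 1.64 to 23.7).

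All 9 genes are named. From every other list the genes named are those called with a change of 2-fold or more, up to 4 for each list and stimulus by size, plus genes at the floor, and *Rxra*, *F13a1* and *Gata6* were added after their values were seen. Some results under this rule are not reported here. The genes and lists were chosen with earlier results of these data known. Alternatives were DESeq2's size factors, DESeq2 1.42.0, no filter on low counts, a minimum change of 2-fold, the 6 libraries of the groups compared, all 18 libraries, the replicate number as a block, each library left out in turn, and converted counts.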

Additional observations from a re-analysis of the deposited data

Results flagged for a closer look

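The response to *E. coli* depended on IFN-γ for *Fn1* and *Pdcd4*, by the test of the difference itself. With IFN-γ present, the log2 change of *Fn1* on adding *E. coli* was higher by 1.72 than without it, and that of *Pdcd4* was higher by 1.65. The same test called 5 of 5 B cell markers and 2 of 14 macrophage markers upward, where 4.62% of all tested genes were called in either direction. The part of these cells in the differences of *Fn1* and *Pdcd4* was not tested.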

How the results depend on the processing

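Of 204 recomputed changes of genes called above, 187 stayed past the threshold in the same direction, 16 missed it and 1 changed sign. Of 173 for genes not called, 154 stayed so, 8 passed the threshold in the same direction and 11 changed sign, 3 of them past it. The number of genes called with both stimuli against IFN-γ was 1, and was 0 with DESeq2, 2 with the replicate number as a block and 2 with converted counts. With IL-4 it was 6, and 2 where a change of at least 2-fold was required. Fits without 1 library each gave 2 to 7. Over those fits the log2 fold change with *E. coli* ranged from -0.15 to 0.25 for *Tgm2*, from -0.33 to 0.082 for *Retnla* and from -0.54 to 0.094 for *Chil3*, and that of *Fn1* ranged from -0.52 to 0.0075 with IFN-γ and from -0.44 to 0.14 with both stimuli. The converted counts, an alternative chosen after seeing the data, turned *Retnla* to -0.66 with both stimuli against unstimulated, to -0.64 against *E. coli*, to -0.92 in the interaction and to 0.10 for the IL-4 response against that to both stimuli, and lowered it to -0.94 with both stimuli against IFN-γ. The cause of these changes was not tested. DESeq2's size factors ended no call and moved no median of all genes by more than 0.03. The labels do not say that replicate numbers pair the libraries, and the data did not settle it: same-numbered libraries correlated at -0.04, 0.21 and 0.33 between IFN-γ and both stimuli and at 0.07, 0.10 and 0.16 between *E. coli* and both. Of 6 libraries, 3 and 4 correlated best with their own number. Over the 9 stimulated libraries, the block called 1430 genes in place of 1153 against IFN-γ and 3447 in place of 3178 against *E. coli*. In the former *Tgm2* went from an adjusted p of 0.167 to 0.0463 and *Pdcd4* from 0.0580 to 0.0435. In the latter *Retnla* passed without the block (0.41, adjusted p = 0.0311) and with it (0.42, adjusted p = 1.76e-04), but its counts with *E. coli*, 3999 to 4084, lay near the ceiling. Depth limited *Ppargc1b* in both sets and *Chil4*, *Mrc1* and *Pparg* in the *E. coli*/IFN-γ set.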
